A study of Rattus norvegicus with 6 samples.

Results

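Transcripts of the effectors of the Hippo pathway were compared between basal cells separated from the rat epididymis and the fraction of its non-basal cells. The 10 genes are Yap1, Wwtr1, Tead1, Tead2, Tead3, Tead4, Lats1, Lats2, Amotl2 and Ajuba. They were chosen by name for their place at the output end of the pathway, with earlier results of these data known. The arrays measured 18166 genes, among them 8 of the 10, each read by a probe set carrying that symbol alone, whereas Tead4 and Lats1 had none and were not analysed here. Epididymides of Sprague-Dawley rats aged 48 days were parted with magnets into the basal fraction (3 arrays) and the non-basal fraction (3 arrays). The arrays were Affymetrix RaGene 2.0 ST chips, which read each transcript with a set of probes, and are called B1 to B3 (replicates of the basal fraction, by number) and N1 to N3 (replicates of the non-basal fraction). The series' design gives 3 rats, but does not say which rat or rats stand behind which array, and the surface molecule used for the separation is not named. B3 and N1 stood apart within their fractions, which shows in the mean deviation of 9 fibroblast markers from their own means over the 6 arrays. It was -2.72, -2.16 and -0.86 log2 units in B1 to B3 and 1.29, 2.30 and 2.16 in N1 to N3.

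The Hippo pathway is a kinase relay through which cell contact, polarity and tension set the activity of a pair of transcriptional coactivators, YAP (Yap1) and TAZ (Wwtr1). The MST kinases (Stk4 and Stk3) activate the LATS kinases, which phosphorylate YAP and TAZ so that they stay in the cytoplasm or are degraded. When they are not phosphorylated, YAP and TAZ enter the nucleus and bind DNA through the TEAD transcription factors, switching on genes such as Ccn1 and Ccn2. In stratified and pseudostratified epithelia, YAP is known for its activity in the basal layer that rests on the basement membrane. Arrays of transcripts do not read phosphorylation or location, so the values below are amounts of messenger RNA in a fraction and not activity of the pathway.

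Ajuba, which encodes a LIM domain protein that binds LATS kinases and alpha-catenin at cell junctions, was 4.49-fold higher in the basal fraction. Yap1 and Tead1 had smaller log2 differences of 0.58 and 0.59, also past the test. The remaining 5 effectors, Wwtr1, Tead2, Tead3, Lats2 and Amotl2, did not pass the test, and of these Tead2 was the single member whose estimate was lower in the basal fraction. In limma with Benjamini-Hochberg adjustment over all genes, 3 of the 8 effectors were higher and 0 lower, where 7.71% and 7.14% of all genes were called higher and lower and 14.9% either way. At an unadjusted p under 0.05 there were 6 higher and 1 lower, where 16.1% and 13.9% of all genes were. The median log2 difference, basal minus non-basal, was 0.41 over the 8 effectors and 0.00343 over all genes. With single arrays left out, 1 effector was higher without B1, B2, N2 or N3, 2 were without N1, and 6 without B3. The share of all genes called higher moved too, and was 3.08%, 2.8%, 3.43% and 2.9% without B1, B2, N2 and N3, 7.51% without N1 and 11.4% without B3.

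TEAD factors recognise the letters GGAATG, and the stretches of 250 bases upstream of the annotated start were searched for them on both strands (GGAATG or CATTCC). The sequences shown are those of the 3 effectors that hold the letters, Ajuba, Yap1 and Amotl2, and of the target genes Ccn1 and Ccn2, with every match in capitals. All are RefSeq sequences of GRCr8, printed 5' to 3' on the strand of the gene. They lie at chr15:32000043-32000292 (minus strand) for Ajuba, chr8:13451438-13451687 (minus) for Yap1, chr8:112182376-112182625 (plus) for Amotl2, chr2:237225690-237225939 (minus) for Ccn1 and chr1:22624615-22624864 (minus) for Ccn2.
Ajuba: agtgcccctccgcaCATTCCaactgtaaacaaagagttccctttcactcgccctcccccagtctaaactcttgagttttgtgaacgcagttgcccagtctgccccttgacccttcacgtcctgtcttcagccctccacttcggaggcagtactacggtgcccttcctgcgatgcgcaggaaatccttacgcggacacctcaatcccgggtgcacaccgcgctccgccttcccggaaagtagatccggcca
Yap1: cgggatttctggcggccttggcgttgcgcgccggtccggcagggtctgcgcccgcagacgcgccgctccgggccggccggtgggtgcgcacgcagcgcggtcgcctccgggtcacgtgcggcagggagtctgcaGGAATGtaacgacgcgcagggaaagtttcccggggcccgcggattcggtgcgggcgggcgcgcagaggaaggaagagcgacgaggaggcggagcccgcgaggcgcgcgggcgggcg
Amotl2: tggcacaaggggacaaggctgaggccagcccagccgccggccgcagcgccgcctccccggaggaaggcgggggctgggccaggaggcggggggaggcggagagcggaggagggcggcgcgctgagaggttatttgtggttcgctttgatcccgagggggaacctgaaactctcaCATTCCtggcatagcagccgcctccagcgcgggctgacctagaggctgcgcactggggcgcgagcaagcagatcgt
Ccn1: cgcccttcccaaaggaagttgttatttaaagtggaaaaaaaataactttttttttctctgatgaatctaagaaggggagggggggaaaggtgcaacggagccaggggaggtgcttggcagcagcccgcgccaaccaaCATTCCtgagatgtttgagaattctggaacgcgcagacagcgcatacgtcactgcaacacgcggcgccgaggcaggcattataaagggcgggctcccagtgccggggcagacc
Ccn2: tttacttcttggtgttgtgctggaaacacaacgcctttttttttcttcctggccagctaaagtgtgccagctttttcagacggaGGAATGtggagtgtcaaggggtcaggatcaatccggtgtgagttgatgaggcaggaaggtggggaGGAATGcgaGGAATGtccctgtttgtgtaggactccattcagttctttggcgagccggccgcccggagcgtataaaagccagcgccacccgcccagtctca
The match begins 236 bases before the start in Ajuba, 116 in Yap1, 76 in Amotl2 and 113 in Ccn1, while Ccn2 has 3 matches, beginning 166, 101 and 92 bases before it. Of the 5 effectors with a sequence in the table, the 3 shown held a match and Wwtr1 and Tead3 held none, against 10.7% of 14503 tested genes. For the longer GGAATGT, or ACATTCC, which contains the shorter motif, it was the same 3 of 5 effectors and 2.85% of the tested genes. The YAP and TAZ target list taken up below had 14 genes with a sequence. Of these, 5 held the shorter motif (35.7%), namely Amotl2, Ccn1, Ccn2, Nuak2 and Ptpn14, and 3 the longer (21.4%). The targets Crim1 and Fjx1 had a sequence without a match. A match of letters is a description of the sequence and does not show that a factor binds there.

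Of the coactivator genes, Yap1 passed the test and Wwtr1 did not. Yap1 had log2 values of 10.91, 10.91 and 10.57 in B1 to B3 and of 10.37, 10.13 and 10.15 in N1 to N3. Every basal value of Yap1 lay above every non-basal value, and B3 came nearest to the non-basal arrays. The Yap1 means were 10.80 ± 0.198 (basal) and 10.21 ± 0.132 (non-basal; SD, n = 3 each), a log2 difference of 0.58 ± 0.124 (moderated SE; limma adjusted p = 0.0294). The Yap1 call was lost when B1, B2, N2 or N3 was left out, with an adjusted p of 0.107 to 0.12, and it was kept without either of the other arrays. Wwtr1, which encodes the paralogous coactivator TAZ, had 10.77, 10.90 and 10.31 in the basal arrays and 10.21, 10.26 and 10.28 in the non-basal arrays. The fractions did not overlap for Wwtr1, but B3 lay only just above the non-basal values. Its log2 difference was 0.41 ± 0.157 (95% interval 0.0264 to 0.79; limma adjusted p = 0.144), and without B3 it was 0.58 with an adjusted p of 0.00818. Wwtr1 passed in no other of the 6 fits that each omit 1 array, and their adjusted p reached 0.346.

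The TEAD genes encode the DNA-binding partners of YAP and TAZ. Tead1 had log2 values of 10.25, 10.26 and 9.91 in the basal arrays and of 9.48, 9.76 and 9.43 in the non-basal arrays. The fractions did not overlap, and the Tead1 means of 10.14 ± 0.198 (basal) and 9.56 ± 0.177 (non-basal; SD, n = 3 each) gave a log2 difference of 0.59 ± 0.136 (limma adjusted p = 0.0388). The Tead1 call was kept in 1 of 6 fits that each omit 1 array, that without B3 (adjusted p = 0.0198), and the other fits gave 0.0539 to 0.145. Tead3 had 9.24, 9.34 and 8.99 in the basal arrays and 8.71, 8.78 and 8.85 in the non-basal arrays. It did not overlap between the fractions either, at a log2 difference of 0.41 ± 0.104 that missed the threshold (limma adjusted p = 0.0514). Of 8 alternative fits that keep all arrays, Tead3 passed in 3. These were among genes with a fraction mean of at least 5 or 7 (0.0447 and 0.0342) and with array weights (0.00958). It missed under the replicate block (0.112), after quantile normalization (0.0598) and after median centring (0.0731). With 1 array left out, Tead3 passed in 1 of 6 fits, that without B3 (0.0127), and the others reached 0.164. Tead2, a TEAD known for its expression in the early mouse embryo, had the opposite sign of estimate, with 7.64, 7.70 and 7.96 in the basal arrays and 8.82, 8.24 and 8.30 in the non-basal arrays. All 3 basal values of Tead2 lay below the non-basal ones, and N1 was the highest. Its log2 difference was -0.69 ± 0.179 (95% interval -1.12 to -0.25; adjusted p = 0.055), and without N1 it was -0.50 with an adjusted p of 0.0494. It also passed after quantile normalization, after median centring and among genes with a fraction mean of at least 5 or 7 (adjusted p 0.0327 to 0.0475). Tead2 passed with array weights too (0.0136), but not under the replicate block (0.1035). Of 6 fits that each omit 1 array, that without N1 was the only 1 in which Tead2 passed, and the others reached 0.185.

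**Figure D1:**
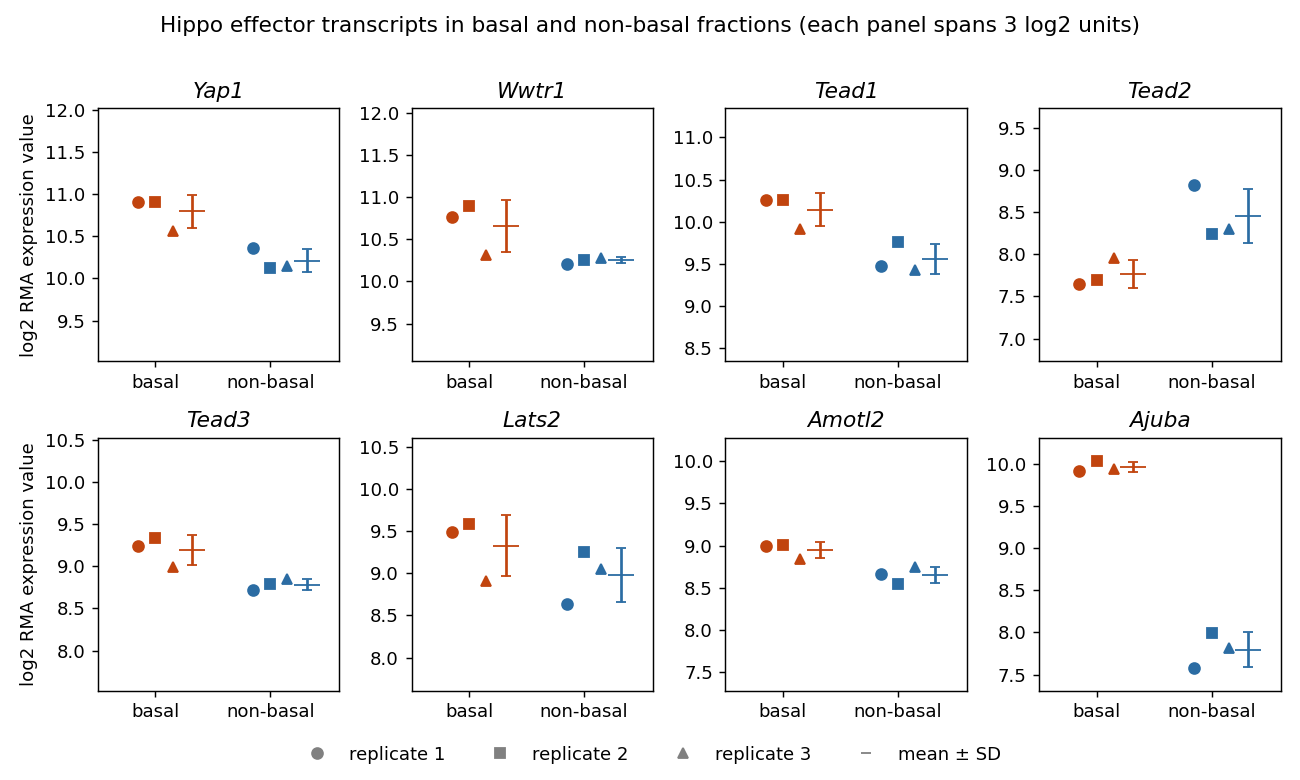
Log2 RMA expression values of the 8 measured Hippo effectors in each of the 3 basal (left) and 3 non-basal (right) arrays, with the mean and SD of each fraction; each panel spans 3 log2 units. The basal values of Ajuba lie between 9.92 and 10.04 and its non-basal values between 7.58 and 7.999, and the Lats2 values are the ones that overlap.

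Among the regulators, Ajuba had the largest difference of the 8 effectors. Its log2 values were 9.92, 10.04 and 9.93 in the basal arrays and 7.58, 7.999 and 7.81 in the non-basal arrays. The basal arrays were close together, B3 included, and far from the non-basal ones. The Ajuba means were 9.96 ± 0.0637 (basal) and 7.80 ± 0.21 (non-basal; SD, n = 3 each), with a log2 difference of 2.17 ± 0.117 (limma adjusted p = 0.00147), and the call was kept in all 6 fits with 1 array left out (adjusted p 0.00221 to 0.0211). By p-value Ajuba ranked 18th of the 18166 genes and by size of the positive difference 53rd. Amotl2 encodes an angiomotin-like protein that holds YAP at junctions and is itself induced by YAP. It had 8.9996, 9.01 and 8.84 in the basal arrays and 8.67, 8.55 and 8.74 in the non-basal arrays. The Amotl2 fractions did not overlap, but the log2 difference of 0.30 ± 0.0842 did not pass (adjusted p = 0.0682), and without B3 it was 0.35 with an adjusted p of 0.0431. Lats2, a kinase that phosphorylates YAP and TAZ and is also one of their target genes, had 9.49, 9.58 and 8.91 in the basal arrays and 8.63, 9.26 and 9.05 in the non-basal arrays. Lats2 was the member whose fractions overlapped, since B3 lay below N2 and N3, and its log2 difference of 0.34 ± 0.232 had a 95% interval of -0.22 to 0.91 (adjusted p = 0.374). In all, the fractions stood apart for 7 of the 8 effectors, as they did for 32.9% of all genes.

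**Figure D2:**
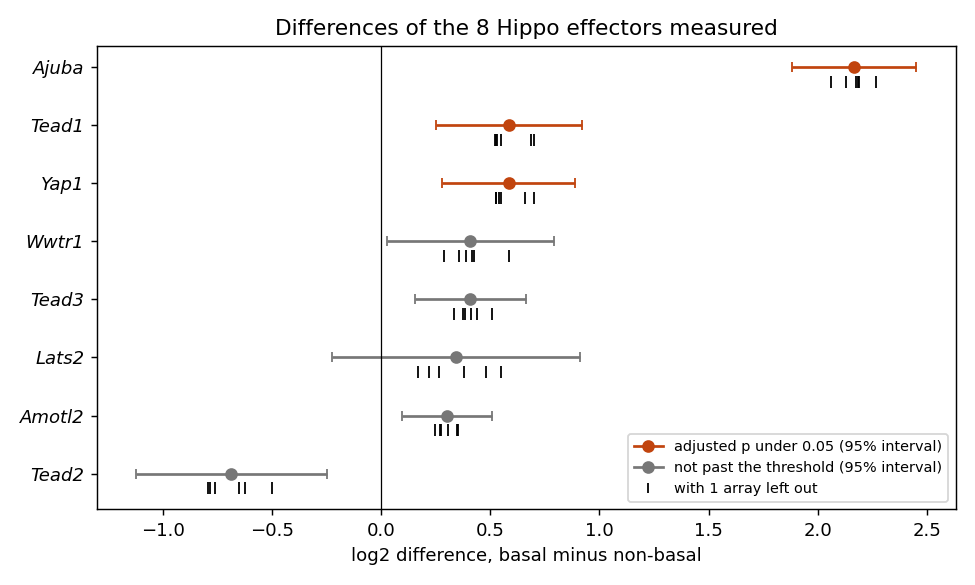
Log2 differences, basal minus non-basal, of the 8 measured effectors with 95% intervals from limma, and below each the values with 1 array left out (ticks). Ajuba at 2.17 stands away from the other members, which lie between -0.69 and 0.59.

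Paralogs were compared by the difference of their log2 differences, because levels of different probe sets cannot be set against each other. The difference of Tead1 exceeded that of Tead2 by 1.27 ± 0.328 (SE), and that of Tead3 exceeded it by 1.09 ± 0.293. In both pairs the ratio within an array was higher in each basal array than in each non-basal array, which gives the smallest exact permutation p that 3 against 3 arrays allow (two-sided exact p = 0.1). Adjusted over the 4 pairs compared, both were at 0.2. Tead1 and Tead3 differed by 0.18 (95% interval -0.15 to 0.50; exact p = 0.3), and Wwtr1 and Yap1 by -0.17 (95% interval -0.51 to 0.16; exact p = 0.3), both with an adjusted p of 0.3. Intervals that wide do not show that these paralogs moved alike.

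The genes whose values followed Yap1 and Wwtr1 most closely over the arrays were found by the root mean square distance between deviations from each gene's own mean over the 6 arrays. For Yap1 the nearest genes were Ankh (0.0223 log2 units), Vps4b (0.0291) and Nrip1 (0.0331). Those genes had log2 differences of 0.59, 0.61 and 0.59 and limma adjusted p of 0.0262, 0.0291 and 0.026. For Wwtr1 they were Ndfip2 (0.0394), Agpat5 (0.0402) and Il6r (0.0403), with log2 differences of 0.47, 0.47 and 0.36, none past the threshold. Because these genes were picked for their likeness to Yap1 or Wwtr1, a similar difference between the fractions follows from the choice. With 6 arrays such likeness is a description only.

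Among transcripts of YAP and TAZ target genes, Ccn2, Crim1, Fjx1, F3 and Ccn1 were 2.78-fold to 4.31-fold higher in the basal fraction. The list was a signature of 22 genes defined in human tumours, of which 18 were measured. It held 9 genes that were higher, 2 that were lower and 7 that did not pass, which is 61.1% called against 14.9% of all genes, with a median log2 difference of 0.48. Because Lats2 and Amotl2 belong to the effectors as well, the other 16 were also counted alone, and they held the same 9 and 2, with a median of 0.70. Without B1, B2 or N3, 5 genes of the list were higher, where 3.08%, 2.8% and 2.9% of all genes were.

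Ccn2, which encodes a secreted matricellular protein, had log2 values of 11.26, 11.23 and 10.98 in the basal arrays and of 8.75, 9.21 and 9.18 in the non-basal arrays. The fractions were well apart, at a log2 difference of 2.11 ± 0.15 (limma adjusted p = 0.00206), and the call held in all 6 fits with 1 array left out. Its relative Ccn1 had 12.74, 12.67 and 12.40 in the basal arrays and 10.58, 11.48 and 11.33 in the non-basal arrays. N1 was the lowest for Ccn1, and the difference of 1.47 ± 0.247 (adjusted p = 0.0136) was not called without B1, B2 or N3, where the adjusted p was 0.0686, 0.0733 and 0.0563. Crim1, a transmembrane protein that binds BMP ligands, was higher by 1.69 ± 0.129 (adjusted p = 0.00209). F3, which encodes tissue factor, the starter of blood clotting, was higher by 1.78 ± 0.257 (adjusted p = 0.00844, and 0.0531 without B2). The kinase gene Nuak2 was higher by 1.17 ± 0.165 (adjusted p = 0.00798, and 0.0504 without N3). Gadd45a, a stress response gene, and Myof, which encodes the membrane repair protein myoferlin, were higher by 0.86 and 0.42, and both calls were lost without B1 and without either of N2 and N3 (adjusted p 0.0621 to 0.0872), that of Gadd45a also without B2 (0.0863).

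Not every target was higher. Ccdc80, which encodes a secreted matrix protein, was lower at -2.34 ± 0.468 (limma adjusted p = 0.0243), with 8.20, 8.49 and 9.08 in the basal arrays and 9.93, 11.58 and 11.28 in the non-basal arrays. Nt5e, which encodes the ectonucleotidase CD73, was lower at -0.42 ± 0.0853 (adjusted p = 0.0248). The Ccdc80 call was kept in 2 of 6 fits that each omit 1 array, those without B3 and without N1, and the Nt5e call in 1, that without B3. Ankrd1, a muscle ankyrin repeat protein often used as a YAP readout, had 5.61, 5.55 and 5.44 in the basal arrays and 5.61, 5.84 and 5.81 in the non-basal arrays. These values overlapped and were below the median of every array, the lowest of which was 6.63, and the Ankrd1 difference of -0.22 did not pass (adjusted p = 0.166).

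**Figure D3:**
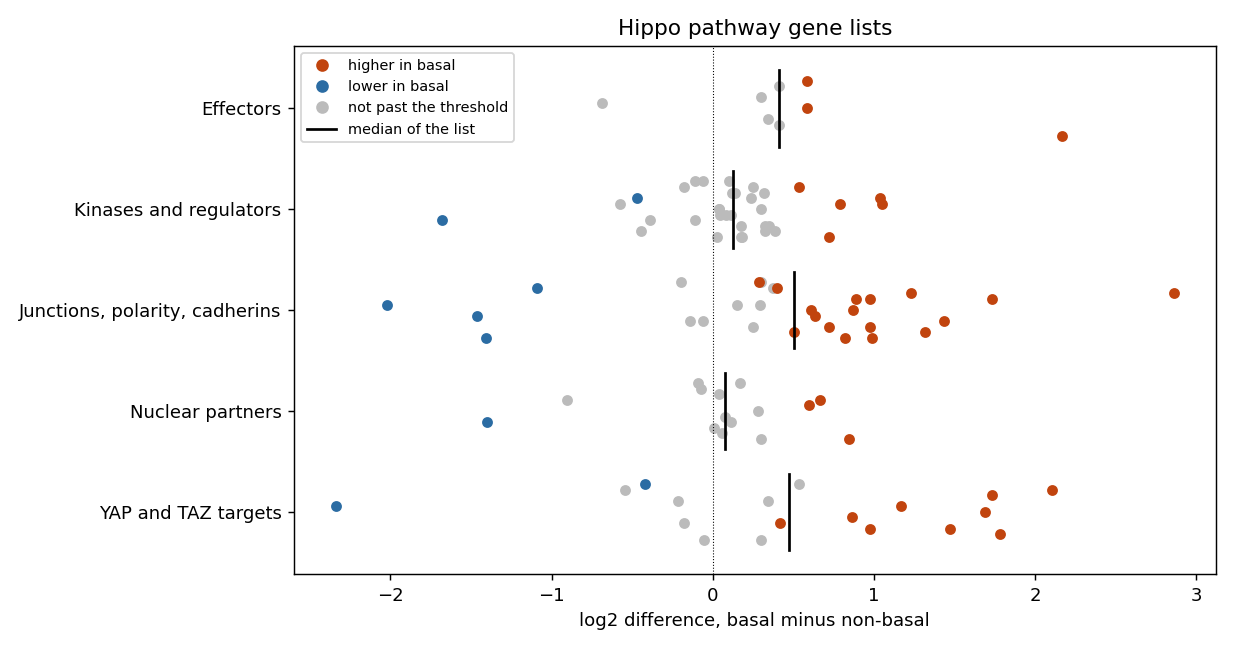
Log2 differences, basal minus non-basal, of each measured gene in the effector list and in 4 lists of Hippo pathway genes, coloured by whether the gene was higher, lower or not past an adjusted p of 0.05, with the median of each list as a bar. The junction, polarity and cadherin list holds 17 higher and 4 lower genes of 29, and the list of kinases and regulators 5 higher and 2 lower genes of 34.

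The list of the kinase relay upstream of YAP and of its regulators (the kinase list) also holds genes that do not encode kinases. Of its 34 measured genes, 5 were higher, 2 were lower and 27 did not pass, which is 20.6% called against 14.9% of all genes, with a median log2 difference of 0.13. Stk3, which encodes the kinase MST2, had 9.06, 8.90 and 8.92 in the basal arrays and 9.42, 9.42 and 9.45 in the non-basal arrays. All 3 basal values of Stk3 were lower, at -0.47 ± 0.0679 (limma adjusted p = 0.00847), and the call held in all 6 fits with 1 array left out. Its paralog Stk4 (MST1) had a difference of -0.11 (adjusted p = 0.413), the adaptor gene Sav1 0.04 (adjusted p = 0.776), and Nf2, which encodes the tumour suppressor merlin, 0.11 (adjusted p = 0.35). Rassf2, a partner of MST kinases, was lower at -1.68 ± 0.22 (adjusted p = 0.00626). Kinases of the MAP4K group can activate LATS beside MST, and 2 of the 7 measured were higher, Map4k3 by 0.79 ± 0.0722 (adjusted p = 0.00267) and Map4k5 by 0.54 ± 0.105 (adjusted p = 0.0231, lost without B1, B2, N2 or N3, at 0.0863 to 0.0974). Strn3, a scaffold that brings a phosphatase to MST kinases, was higher by 1.05 ± 0.145 (adjusted p = 0.00741). Wwc2, a relative of the junctional scaffold KIBRA, was higher by 0.72 ± 0.108 (adjusted p = 0.00946, and 0.0515 and 0.0545 without B2 and N3). The FERM domain gene Frmd6 was higher by 1.04 ± 0.248 (adjusted p = 0.0424), a call kept in 1 of 6 fits that each omit 1 array, that without N1. Of this list 3 genes were higher without B1 or N2, where 3.08% and 3.43% of all genes were. There were 2 higher without B2 or N3, where 2.8% and 2.9% of all genes were.

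Junction, polarity and cadherin genes that feed the pathway had the largest share of calls among the 4 pathway lists. Of 29 measured, 17 were higher, 4 were lower and 8 did not pass, which is 72.4% called against 14.9% of all genes, with a median log2 difference of 0.50. Without single arrays the number higher was 9 for B1, 7 for B2, 10 for N2 and 9 for N3. The share of all genes called higher in those fits was 3.08%, 2.8%, 3.43% and 2.9%. The giant cadherin genes went both ways. Fat2 had log2 values of 9.13, 9.03 and 8.62 in the basal arrays and of 6.02, 5.84 and 6.33 in the non-basal arrays, a log2 difference of 2.86 ± 0.182 (limma adjusted p = 0.00176). Fat1 was higher by 1.32 ± 0.205 (adjusted p = 0.0108, and 0.0621 and 0.0598 without B2 and N3). Fat4 was lower, with 6.81, 6.72 and 6.63 in the basal arrays and 8.04, 8.33 and 8.01 in the non-basal arrays, at -1.41 ± 0.107 (adjusted p = 0.00209). Fat3 was lower at -1.47 ± 0.234 (adjusted p = 0.0118), a call kept in 3 of 6 fits that each omit 1 array. Its call was lost without B1, B2 or N2, at an adjusted p of 0.0538 to 0.0644. Dchs1, the cadherin that binds Fat4 on the neighbouring cell, was lower at -1.09 ± 0.113 (adjusted p = 0.00352).

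Partners of the Fat cadherins likewise parted. Fjx1, the vertebrate relative of the Drosophila kinase four-jointed, which modifies Fat and Dachsous in the fly, was higher by 1.73 ± 0.196 (limma adjusted p = 0.00434) and is counted among the targets too. Lix1l, a homolog of the Drosophila gene lowfat, was lower at -2.02 ± 0.192 (adjusted p = 0.00293). Ctnna1, the alpha-catenin that Ajuba binds at adherens junctions, had 11.87, 11.86 and 11.85 in the basal arrays and 11.12, 11.16 and 11.13 in the non-basal arrays. The Ctnna1 arrays agreed closely within each fraction, with a difference of 0.72 ± 0.0553 (adjusted p = 0.00209). Prkci, an atypical protein kinase C of the polarity complex, was higher by 0.99 ± 0.0970 (adjusted p = 0.00309). Ptpn14, a phosphatase that binds YAP and is also counted as a target, was higher by 0.98 ± 0.156 (adjusted p = 0.0117, and 0.0558 and 0.0648 without B1 and B2).

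The paralogs of Amotl2 and Ajuba belong to the same list. Amot, the founding angiomotin, was higher by 0.82 ± 0.138 (limma adjusted p = 0.0138), with 9.51, 9.54 and 9.36 in the basal arrays and 8.93, 8.59 and 8.44 in the non-basal arrays. The Amot call was lost without B1, B2, N2 or N3, at an adjusted p of 0.0551 to 0.073. Wtip, a LIM protein of the Ajuba family, was higher by 0.40 ± 0.0905 (adjusted p = 0.0364), a call kept in 1 of those 6 fits, that without N1, and lost when each array was centred on its median (0.0549). For Limd1, the third of the family, the difference was -0.06 (adjusted p = 0.691), and its sign turned when its probe sets were averaged or N1 was left out.

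Of 15 measured nuclear and cytoplasmic partners of YAP, 3 were higher, 11 did not pass and 1 was lower, which is 26.7% called against 14.9% of all genes, with a median log2 difference of 0.07. The RUNX factors carry a motif that YAP binds, and they parted in direction. Runx1 was higher by 0.85 ± 0.0848 (limma adjusted p = 0.00323), Runx3 was lower at -1.40 ± 0.298 (adjusted p = 0.0295), and Runx2 had a difference of -0.91 (adjusted p = 0.089). The Runx3 call was kept in 1 of 6 fits that each omit 1 array, that without N1, and the others gave 0.0683 to 0.122. Tp73, a p53 family factor that YAP coactivates, was higher by 0.60 ± 0.0867 (adjusted p = 0.00855). Among the 14-3-3 proteins, which hold phosphorylated YAP in the cytoplasm, Ywhah was higher by 0.67 ± 0.129 (adjusted p = 0.0221), a call kept in 1 of those 6 fits, that without B3, and Ywhag had a difference of 0.30 (adjusted p = 0.162). Vgll4, which competes with YAP for TEAD factors, had a difference of 0.05 (adjusted p = 0.666).

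Markers of basal epithelium and of several other cell types differed between the fractions too, and their part in the differences above was not tested. All 8 measured basal epithelial markers were higher, and their summed signal (values taken off the log2 scale and added over the genes) was 13101 to 16980 in the basal arrays and 1386 to 2647 in the non-basal arrays. All 9 fibroblast markers were lower, with a summed signal of 1904 to 8497 in the basal arrays and 34909 to 62524 in the non-basal arrays. Among smooth muscle and pericyte markers, 6 of 8 were lower (summed signal 4680 to 6906 in basal and 19197 to 20018 in non-basal arrays), as were all 8 endothelial markers (985 to 1413 in basal and 3670 to 3954 in non-basal arrays) and 7 of 9 lymphocyte markers (581 to 971 in basal and 4153 to 7724 in non-basal arrays). Of 10 macrophage and leukocyte markers 3 were lower, with summed signals of 2410 to 3115 in basal and 3136 to 6501 in non-basal arrays. At the same adjusted threshold, 7.71% of all genes were called higher and 7.14% lower. None of the 9 principal cell and 9 narrow and clear cell markers passed in limma, and at an unadjusted p under 0.05 there were 3 and 0 lower, where 13.9% of all genes were. Principal cell signals overlapped at 32510 to 53030 in basal and 49973 to 56681 in non-basal arrays, and so did those of narrow and clear cells at 4451 to 6415 in basal and 5068 to 7738 in non-basal arrays. Still, 0 of the 9 principal cell markers had a positive estimate (median log2 difference -0.39), where 9245 of 18166 genes did. Their mean deviation was -0.76, -0.30 and 0.33 in B1 to B3 and 0.38, 0.18 and 0.18 in N1 to N3. Of the narrow and clear cell markers 3 had a positive estimate (median -0.04). No marker is at 0 on this scale. Of the defining markers, Krt5 of basal cells, Acta2 of smooth muscle and Pecam1 of endothelium were not used here. In such mixed fractions, fewer cells of a type and less RNA per cell cannot be told apart.

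B3 lay nearer to the non-basal arrays than the other basal arrays did. The mean deviation of the 8 effectors from their own means was 0.31, 0.37 and 0.09 in B1 to B3 and -0.28, -0.22 and -0.27 in N1 to N3. For 7 of the 8 effectors, all but Ajuba, B3 was the basal array closest to the non-basal mean. The target signature had deviations of 0.35, 0.35 and 0.11 in the basal arrays and -0.531, -0.105 and -0.167 in the non-basal arrays. B3, the basal array with the most fibroblast signal, was also the basal array with the lowest effector and target values, whereas N1 had the lowest target and basal marker values and the least fibroblast signal of its fraction. Fibroblast markers were not alone in this. B3 was also the highest basal array for principal cell (0.326), smooth muscle (-0.508), endothelial (-0.527), lymphocyte (-0.718) and narrow and clear cell markers (0.0901), but not for macrophage markers. N1 was the highest of its fraction for principal cell (0.377), narrow and clear cell (0.411) and endothelial markers (0.893), and the lowest for smooth muscle, lymphocyte and macrophage markers. What set B3 and N1 apart was not tested. With B3 and N1 both left out, a choice made after seeing the data, 5 effectors were higher and 1, Tead2, was lower, where 13.8% and 11.7% of all genes were.

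**Figure D4:**
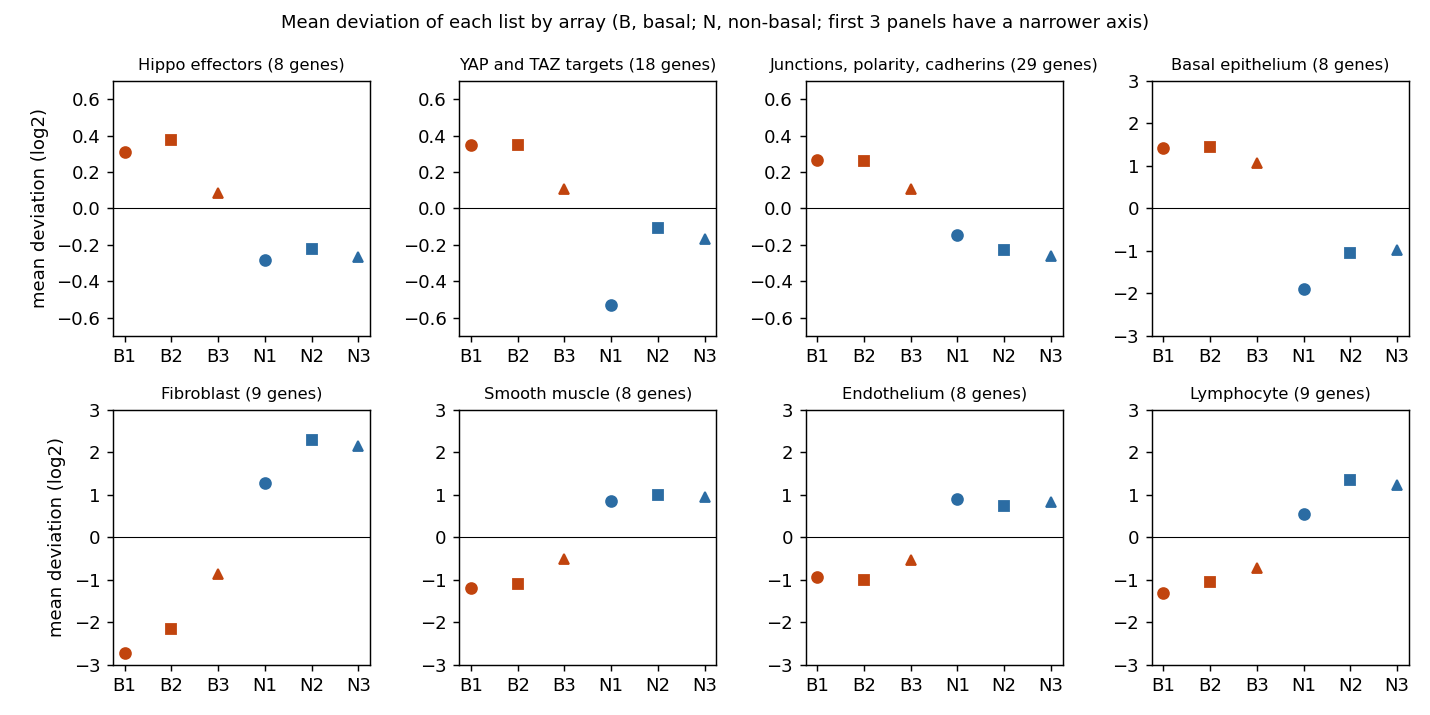
Mean deviation (log2 units) of each gene list from its genes' own means, by array, for the basal arrays B1 to B3 and the non-basal arrays N1 to N3; the first 3 panels have a narrower axis. The effectors lie at 0.31, 0.37 and 0.09 in the basal arrays and between -0.28 and -0.22 in the non-basal arrays. Fibroblast markers have the opposite sign in every array, but within the non-basal fraction both lists are lowest in N1.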

How the data were processed

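The authors deposited log2 expression values for 36685 probe sets, which per the submitters' processing notes were made with RMA and Affymetrix Expression Console. The versions, the probe set library and the build are not given in the sources used here. Values ran from 1.46 to 14.33. RMA matches the arrays' distributions, so a shift of most genes one way would be removed. The number of arrays limits the precision.

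Groups and replicate numbers came from the sample titles. The design gives 3 rats, as many as the arrays of each fraction, without tying arrays to rats, so p-values reflect the spread between these arrays alone and that spread may be technical. The 18511 probe sets with 1 symbol in the platform annotation were used (575 had several and 17599 none), and the one with the highest mean stood for each of 18166 genes. Each gene was fitted in R 4.3.3 with limma 3.58.1, using lmFit and eBayes (two-sided, Benjamini-Hochberg over all genes, threshold 0.05, no filter, no replicate block). Paralog pairs used exact permutation over arrays. The fit was tested on simulated data.

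The effectors and lists were chosen with earlier results of these data known. Named genes are the effectors, the 6 smallest p of each pathway list, Ccn1, Ccn2, Ankrd1, Stk3, Stk4, Sav1, Nf2 and Vgll4, and the 3 nearest profiles of Yap1 and of Wwtr1. Amot, Wtip, Limd1, Fat1, Fat3, Frmd6, Ccdc80, Nt5e, Gadd45a and Myof were added after their values were seen. A list symbol missing from the arrays was looked up among RefSeq synonyms. Alternatives were the replicate block, quantile normalization, median centring, filters at a fraction mean of 5 or 7, array weights, the mean of a gene's probe sets, an intensity trend with robust spread, and each array left out in turn.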

Additional observations from a re-analysis of the deposited data

How the results depend on the processing

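With 1 array left out, the number of effectors higher ranged from 1 to 6 and of those lower from 0 to 1. For the kinase list the ranges were 2 to 6 higher and 2 to 3 lower, for the junction list 7 to 18 and 3 to 4, for nuclear partners 2 to 5 and 0 to 1, and for targets 5 to 10 and 0 to 2. Tead2 became the 1 effector lower after quantile normalization, after median centring, with filters at a fraction mean of 5 or 7, and with array weights. With either filter Tead3 passed too, which made 4 effectors higher. Median centring ended the Wtip call and gave 14 junction list genes higher in place of 17. Array weights also gave 6 effectors higher, 10 kinase list genes higher and 2 nuclear partners lower. Leaving out B3 and N1 together, chosen after seeing the data, gave 5 effectors higher and 1 lower, 8 kinase list and 20 junction list genes higher, and 5 nuclear partners higher and 2 lower. The cause of these moves was not tested. Under the replicate block 3 effectors were higher and 0 lower, and 1 target was lower in place of 2, Nt5e being lost. Among named genes the block also ended the calls of Wtip, Frmd6 and Myof (limma adjusted p = 0.0582, 0.0593 and 0.0568). Same-numbered arrays had low correlations of deviations, at 0.0312, 0.0383 and 0.0278, although each array correlated best with its own number. With 3 arrays per fraction this check cannot tell whether the arrays were paired, and the labels do not say. Over all genes, 509 to 2068 were higher and 542 to 1607 lower with 1 array left out, and 2868 and 2323 with array weights, against 1401 and 1297. The same counts were 1214 and 1444 with median centring, 1372 and 1479 with quantile normalization, and 982 and 1027 under the replicate block. Filters at 5 and 7 gave 1504 and 1370 of 16207 genes, and 1581 and 1380 of 10876. Without B3 and N1 together there were 2499 higher and 2124 lower. With 1 array left out the Sav1 difference ranged from -0.0186, where its sign turned (without B2), to 0.0626, and that of Limd1 was as low as -0.106. The sign of Limd1 turned at 0.0779 with probe sets averaged, 0.0045 without N1 and 0.00675 without that array and B3. The paralog contrasts kept their direction under every alternative run. Median centring moves both genes of an array alike, so it could not change a contrast, and averaging probe sets left the contrasts as they were. The pairs with Lats1 or Tead4 were not run, since neither gene had a probe set of its own.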
